A study of Drosophila melanogaster with 2 samples.

Results

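Small nucleolar RNA (snoRNA) genes and the genes that carry them were examined in chromatin immunoprecipitation sequencing (ChIP-seq) of the CG7556 protein. Members were the 257 Ensembl genes whose symbol begins with snoRNA: on the 6 main chromosome arms, out of 17896 genes considered there. Together with them stood the 82 genes that span a snoRNA on its own strand, here called hosts. The chromatin came from whole embryos, male and female pooled, aged 0 to 24 h, of a fly line stably carrying CG7556 fused to GFP at its C-terminus. Such a transgene can add to the copies of the gene. An antibody to GFP was used, and the 2 libraries are biological replicates of this single group. The labels name neither the promoter of the transgene nor the number of insertions, and each library pools all cell types of the embryo.

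The authors deposited a list of regions for each replicate, a pooled list of 30000 regions made from both, and 7184 optimal peaks that passed their test of reproducibility between replicates. By its name the pooled list holds peaks and background, as the input to that test. A pooled region that is not an optimal peak may therefore be background, and is not read here as binding. Each region has a summit and a signal, a number of unstated scale. Optimal signals ran from 137 to 4859 with a median of 244. Bound below means only that an optimal summit lay within 500 bp of the start of the gene, the start being its 5' end. The control library was not analysed here. The lists carry no read counts, so the depth of each library is unknown. With 1 group of 2 replicates, and with genes and peaks that are not replicates, no test was run. The values below are counts, with each replicate list beside them.

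SnoRNAs guide the chemical modification of other RNAs, chiefly ribosomal RNA, inside the nucleolus. Those with C and D boxes guide 2'-O-methylation, and those with H and ACA boxes guide the conversion of uridine to pseudouridine. In flies most lie in introns of other genes and are released when the spliced intron is trimmed, so that the promoter of the host drives them, while a few have promoters of their own. Hosts are often genes for ribosomal proteins or translation, or non-coding genes of the Uhg type whose known product is the snoRNAs in their introns.

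The classes by annotation were uneven in size. An intron of a same-strand gene held 230 snoRNAs, while 11 stood free, with no other gene spanning them on either strand. Another 10 were spanned only by a gene on the other strand, and 6 lay in an exon of a same-strand gene. By symbol, 115 were H/ACA box and 94 C/D box RNAs, and 48 had symbols that give no box. The sequences followed the symbols. An ACA lay within the last 8 bases of 108 of the 115 H/ACA genes (93.9%), against 7 of the 94 C/D genes (7.45%). Both TGATGA, the core of box C, within the first 25 bases and CTGA, box D, within the last 15 were found in 63 of the 94 C/D genes and in 0 of the 115 H/ACA genes. The median length was 140 bp for H/ACA and 79 bp for C/D genes.

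The next 6 sequences show both kinds of snoRNA, from genes in each position. The first 3 are intronic and bound at their start together with the host (RpL14, RpL28 and RpL10Ab), and the last 3 stand free. Capitals mark box C and box D, or the ACA of H/ACA genes. All are RNA-like strands of the RefSeq genome, Release 6 (dm6).
snoRNA:U49:66Da, chr3L:8601473-8601552, plus strand: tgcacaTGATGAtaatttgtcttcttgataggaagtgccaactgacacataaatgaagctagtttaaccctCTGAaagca
snoRNA:Or-CD11a, chr3L:3222475-3222541, minus strand: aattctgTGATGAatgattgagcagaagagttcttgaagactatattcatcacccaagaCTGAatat
snoRNA:Psi18S-920, chr3L:11822984-11823124, plus strand: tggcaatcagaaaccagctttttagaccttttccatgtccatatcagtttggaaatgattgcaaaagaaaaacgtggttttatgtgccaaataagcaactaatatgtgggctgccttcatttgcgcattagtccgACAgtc
snoRNA:Psi28S-3342, chrX:5524302-5524465, minus strand: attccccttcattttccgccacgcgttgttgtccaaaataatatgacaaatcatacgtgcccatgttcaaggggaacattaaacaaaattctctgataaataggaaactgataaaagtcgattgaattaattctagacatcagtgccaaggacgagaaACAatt
snoRNA:Psi18S-301, chr3R:20574906-20575043, plus strand: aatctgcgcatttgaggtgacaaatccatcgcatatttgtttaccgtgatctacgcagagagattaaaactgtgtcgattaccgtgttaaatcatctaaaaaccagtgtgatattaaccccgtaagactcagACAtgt
snoRNA:Me18S-A1806, chr3L:7639717-7639794, plus strand: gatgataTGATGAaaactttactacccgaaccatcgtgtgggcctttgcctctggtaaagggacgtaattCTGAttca

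The peaks lay at the starts of the hosts and seldom at the snoRNAs themselves. Of the 82 hosts, 42 (51.2%) were bound at their start. Of the 72 protein-coding hosts 38 were bound (52.8%), against 18.3% of the 13873 protein-coding genes that host no snoRNA. Of the 10 non-coding hosts 4 were bound (40.0%), against 9.69% of 2003 other non-coding genes that no gene spans. Ribosomal protein genes made up much of this count, since without them 18 of 54 hosts were bound, a choice made after the data were seen. Of the 230 intronic snoRNA starts, 14 (6.09%) were bound, close to the 5.65% of 1681 other non-coding genes that a gene spans. A bound host start stood above 132 of the 236 hosted snoRNAs (55.9%). With any pooled region counted, whatever its strength, 59 hosts (72.0%), among them 53 of the 72 protein-coding ones (73.6%), and 31 intronic snoRNAs (13.5%) had a summit. The corresponding background was 39.7% of protein-coding genes that host none and 22.5% of spanned non-coding genes.

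**Figure D1:**
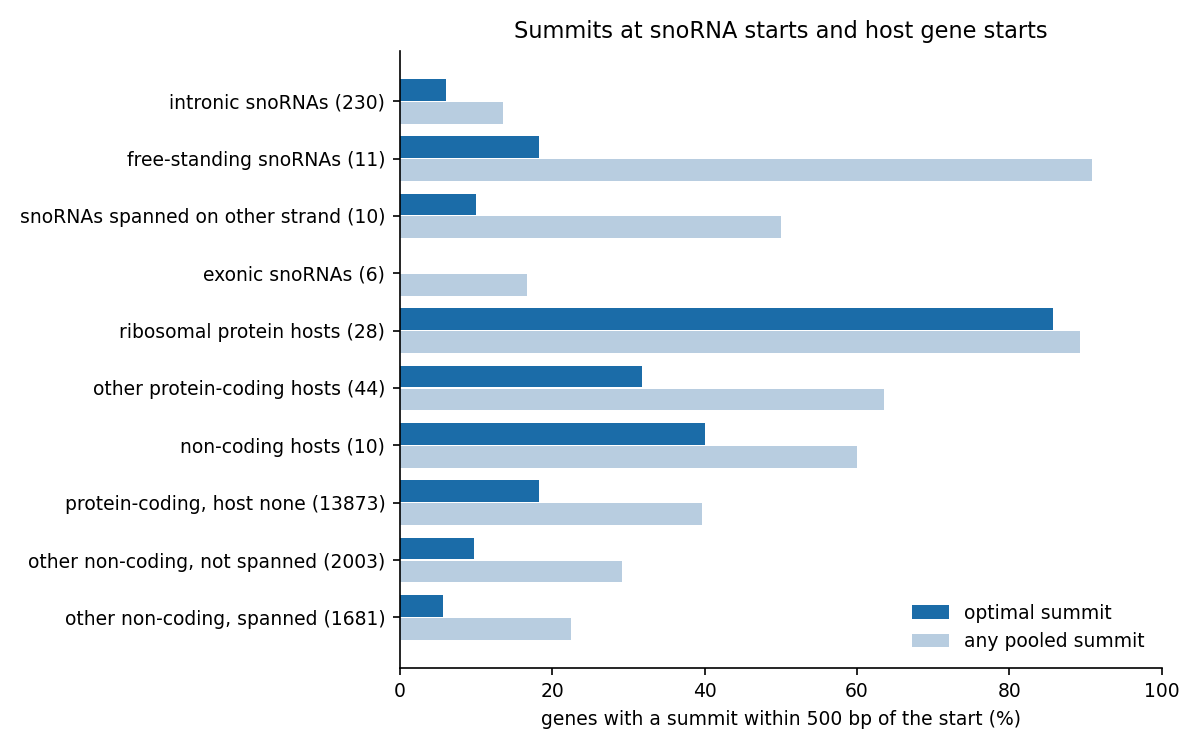
Bars give the percentage of genes with an optimal summit (dark) or any pooled summit (light) within 500 bp of the start, with the number of genes in each class in parentheses. Ribosomal protein hosts reach 85.7% for optimal summits, and free-standing snoRNAs 90.9% for any pooled summit against 18.2% for optimal ones.

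Most bound intronic snoRNAs lay at the front of their host. Of the 14, 13 shared their optimal summit with the host start. Among 21 intronic snoRNAs up to 500 bp from the host start, 12 (57.1%) were bound. Between 501 and 2000 bp 1 of 105 was bound (0.952%), and beyond 2000 bp 1 of 104 (0.962%). In the middle group 73 of the 105 had a bound host. The single case between 501 and 2000 bp, snoRNA:Me18S-C1096 in RpL3, lay 511 bp from the host start and 496 bp from the summit. In the bound snoRNAs the summit lay upstream of the snoRNA start in 16 of 17, at a median of -389 bp. The distance from an intronic snoRNA to its host start had a median of 1767 bp, so most of them lay farther from it than the 500 bp window reaches.

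**Figure D2:**
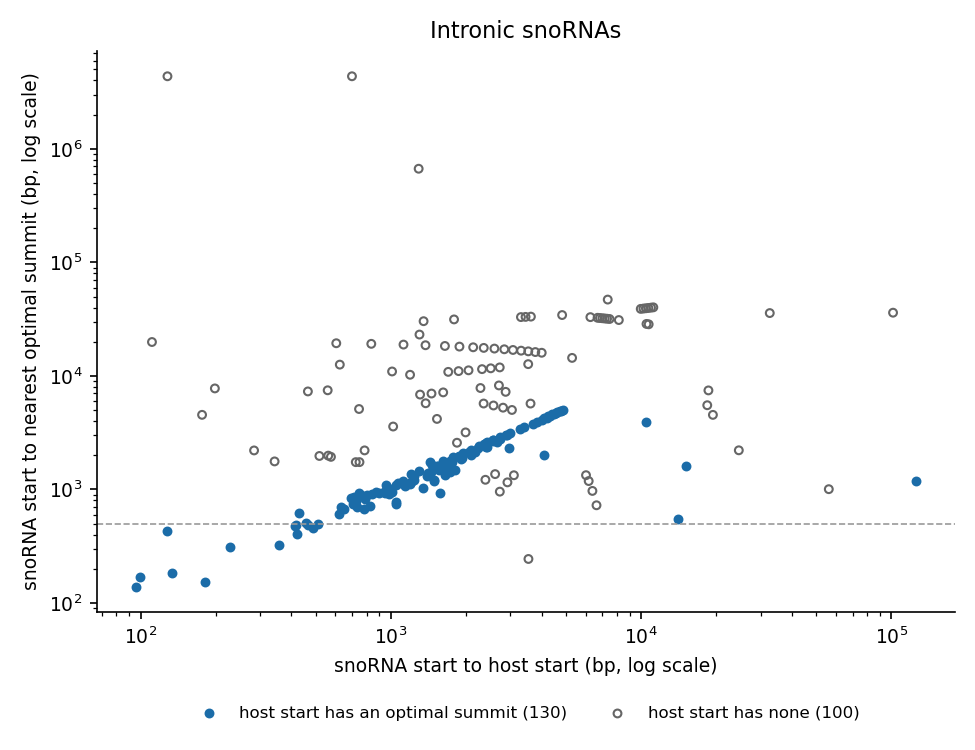
Each point is 1 of 230 intronic snoRNAs, placed by its distance to the host start and to the nearest optimal summit, both on log scales, with a dashed line at 500 bp. Most filled points, whose host start is bound, run along the diagonal, and 1 open point, snoRNA:Or-ACA9, lies below the line.

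The exception was snoRNA:Or-ACA9, inside AdamTS-A, a gene for a secreted metalloprotease. Its start lay 3545 bp from the host start, which had no region in any list. The summit on 3R at 15472892 lay 244 bp upstream of the snoRNA, with a signal of 242 in the optimal list. The highest region within 500 bp had a signal of 110 in replicate 1 and 125 in replicate 2. At 511 bp it was the longest of the members, and no other annotated start was nearer to this summit.

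Clustered snoRNAs shared single summits. The 17 bound snoRNA starts corresponded to 15 distinct optimal summits. Both snoRNA:Psi28S-2949 and snoRNA:Or-aca5, H/ACA RNAs at the front of Uhg4, had the summit at 9095204 on 2R, 69 bp upstream of the host start. The C/D RNAs snoRNA:Me18S-C1366 and snoRNA:Me28S-C3227a shared one at the start of Uhg5. The nearest annotated start to the summit was that of a snoRNA in 4 of the 17 cases, namely snoRNA:Or-ACA6, snoRNA:185, snoRNA:Psi18S-176 and snoRNA:Or-ACA9. By box, 9 of 115 H/ACA genes (7.83%) and 6 of 94 C/D genes (6.38%) were bound.

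The threshold of 500 bp passed through a continuous series. Just inside it were snoRNA:U49:66Da and snoRNA:Or-CD11a at 483 bp and snoRNA:Me18S-C1096 at 496 bp. Just outside were snoRNA:Me18S-G1620 at 502 bp (signal 206) and snoRNA:Or-CD13 at 528 bp (signal 389). Among hosts the gap was wider, with tim at 448 bp and then CG3902 at 741 bp.

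Ribosomal protein genes were the host class most often bound. Of 28 such hosts 24 (85.7%) had an optimal summit at the start, against 14 of the 44 other protein-coding hosts (31.8%). In the same class, 36 of the 65 ribosomal protein genes that host no snoRNA were bound (55.4%). Those 65 were taken by symbol and include 5 genes with the ending -like and further duplicate copies, such as RpL10Aa and RpS5b. They also include RpL23A, bound with a signal of 579, which spans the 4 snoRNAs of Uhg7 but was not kept as their host. With any pooled region, 25 of 28 hosts (89.3%) and 55 of 65 non-hosts (84.6%) had a summit, so the classes stood farther apart in optimal peaks than in regions of any strength.

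RpL14, a large-subunit protein gene with 2 snoRNAs, had the highest signal of these hosts, 627 in the optimal list. Its highest region had a signal of 247 in replicate 1 and 375 in replicate 2. RpL28, with 5 snoRNAs, had 543 in the optimal list, 224 in replicate 1 and 325 in replicate 2. Both were lower in replicate 1. RpS20, a small-subunit gene with 2 snoRNAs, went the other way, with 529 in the optimal list, 328 in replicate 1 and 201 in replicate 2. Its summit lay nearest to the start of a neighbour, CG17271. RpL13A had 508 in the optimal list, 242 in replicate 1 and 281 in replicate 2. RpL30 had 486 in the optimal list, 223.5 in replicate 1 and 259 in replicate 2. The bound ribosomal protein hosts ran from 154 (RpS12) to 627 with a median of 311, inside the range of optimal peaks and above their median of 244. RpS5a, whose introns hold 14 H/ACA snoRNAs, was near the lower end at 170, with 63.8 in replicate 1 and 108 in replicate 2. RpS7, with 7 snoRNAs, had 317, and RpS16, with 5, had 336.

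Among the ribosomal protein hosts RpS9, RpL36A, RpL15 and RpL5 had no optimal summit at the start. RpS9 had a pooled signal of 110, below the lowest optimal value of 137. RpL36A had regions in both replicates, of 103.5 in replicate 1 and 74.6 in replicate 2, but none in the pooled list within 500 bp. RpL15 (3L, from 27267255 to 27268445) and RpL5 (2L, from 22532279 to 22536884) had no region in any list. Both lie in pericentric heterochromatin, where optimal peaks were far away, the nearest being 4357006 bp from the RpL15 start and 669392 bp from the RpL5 start. The treatment of reads that match repeated sequence there is not stated.

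The replicates differed in one way that followed the host class. At the 24 bound ribosomal protein hosts the ratio of replicate 1 to replicate 2 signal had a median of 0.7495, and it was below 1 in 19 of them. At the 18 other bound hosts the median was 1.08, with 7 below 1. Among these, Uhg2 (0.523), Uhg5 (0.661) and Uhg4 (0.963) were below 1 and Uhg8 (1.33) was above it. Over 2494 bound protein-coding genes that host no snoRNA and had a region in both replicates, the median was 1.07. The 36 bound ribosomal protein genes that host no snoRNA had 0.782, with 31 below 1, so the lower value in replicate 1 was not confined to hosts. RpS4 had the lowest ratio of the hosts, 0.446 (92.9 in replicate 1 and 208 in replicate 2), and RpS20 the highest, 1.63. Each ratio takes the highest region within 500 bp in each list, which need not be the same summit. No test was run on it, and what differs between the libraries was not tested.

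**Figure D3:**
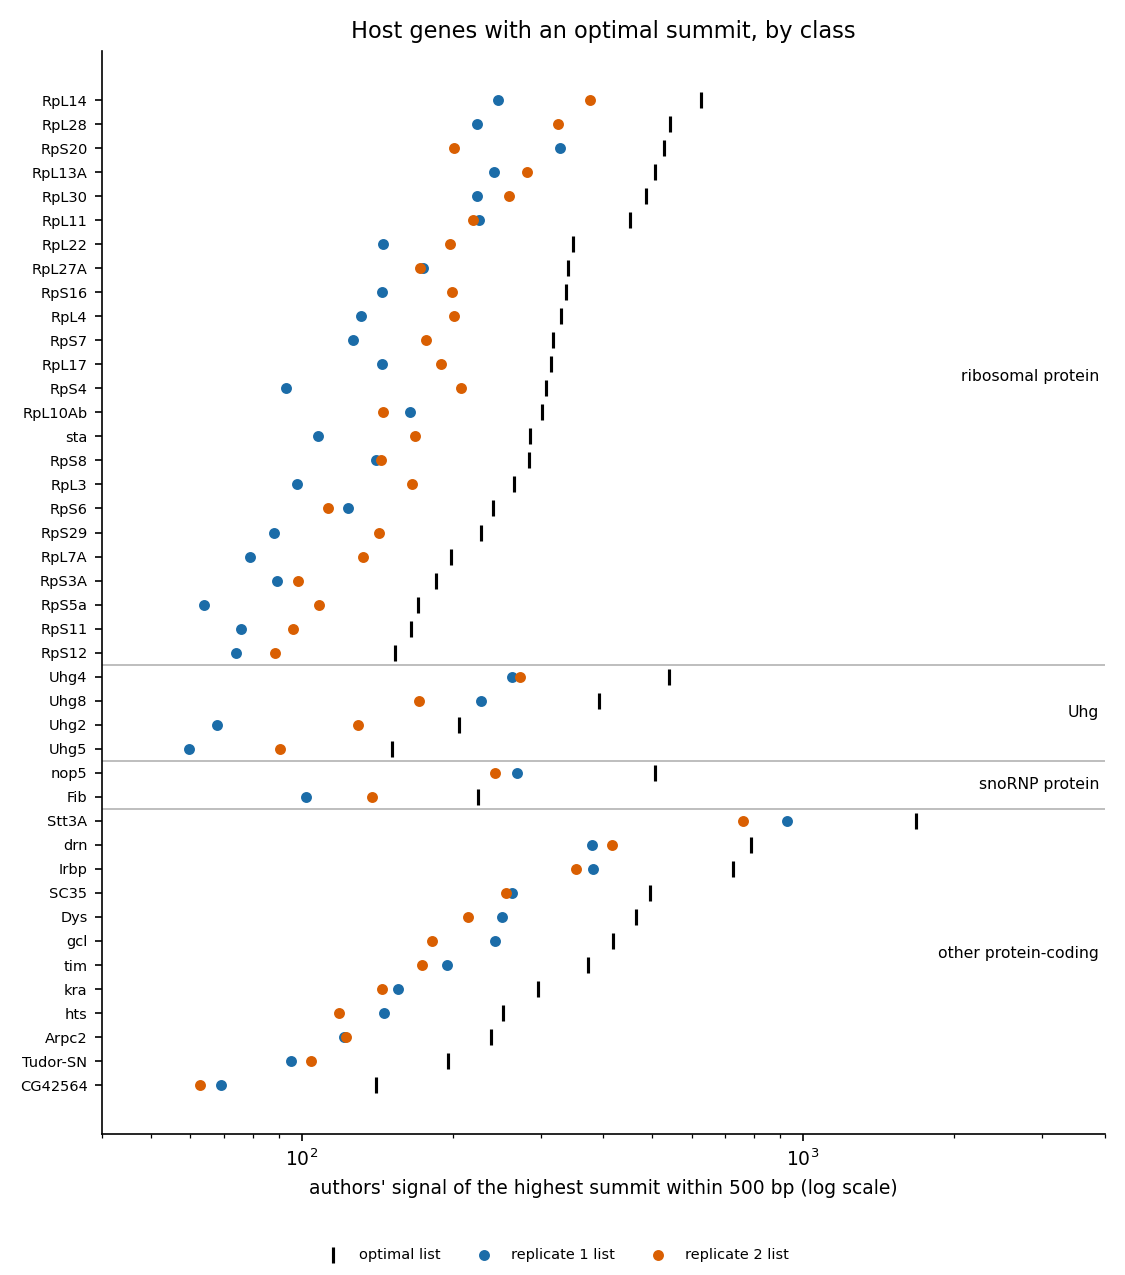
Each row is 1 of the 42 hosts with an optimal summit, grouped by class, with the signal in the optimal list (black tick) and of the highest region within 500 bp in replicate 1 (blue) and replicate 2 (orange), on a log axis. Blue lies left of orange in 19 of 24 ribosomal protein hosts and in 7 of 18 others.

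The non-coding hosts divided into the Uhg genes and the rest. Of 7 Uhg genes, 4 were bound (57.1%). Among other non-coding genes the share was 9.69% where no gene spans them and 5.65% where a gene does. Uhg4 (7 snoRNAs) had 542 in the optimal list, 263 in replicate 1 and 273 in replicate 2. Uhg8 (3 snoRNAs) had 392 in the optimal list, 228 in replicate 1 and 172 in replicate 2. Uhg2 (4 snoRNAs) had 206 in the optimal list, 67.9 in replicate 1 and 130 in replicate 2. Uhg5, with 11 C/D snoRNAs, had 152 in the optimal list, 59.7 in replicate 1 and 90.4 in replicate 2. These values span a range like that of the ribosomal protein hosts. Uhg1, which holds 16 snoRNAs, had only a pooled region of 84.8, with 72.4 in replicate 1 and 44.2 in replicate 2. Uhg3 had a pooled region of 60.2, and Uhg7 had none in any list. The 3 other non-coding hosts, lncRNA:CR31647, lncRNA:CR42491 and lncRNA:CR45184, likewise had no region in any list. Some of these lie within a longer gene on the same strand. Uhg7 lies within RpL23A, whose start 1347 bp away was bound with a signal of 579. lncRNA:CR42491 lies within RpL22, whose start 1320 bp away was bound with 348. lncRNA:CR45184 lies within Sf3b3, which was not bound. With the list of replicate 1 alone, cut to 7184 regions, 2 of the 10 non-coding hosts were bound, against 4 with that of replicate 2.

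Protein-coding hosts outside the ribosome were bound at 14 of 44 starts. The highest was Stt3A, which encodes a catalytic subunit of the oligosaccharyltransferase, with 1679 in the optimal list, 929 in replicate 1 and 761 in replicate 2. It ranked 101 of all optimal peaks, but the summit lay 400 bp upstream of Stt3A and nearer to the start of bves, whose own start is 26 bp from that of Stt3A. Next came drn with 788 in the optimal list, 380 in replicate 1 and 417 in replicate 2. Its summit, at 9340608 on 3R, lay 392 bp inside the gene but just upstream of another drn transcript start, at 9340654. Irbp, the fly Ku70 gene for repair of broken DNA ends, had 727 in the optimal list, 381 in replicate 1 and 352 in replicate 2. Its summit lay between Irbp and mgr and 80 bp from the mgr start. SC35, a splicing factor gene with 2 snoRNAs, had 496 in the optimal list, and the nearest start was that of eRF3, which encodes a translation release factor. Further bound hosts were Dys (dystrophin, 465), gcl (germ cell-less, 418), tim (the circadian gene timeless, 373), kra (295), hts (adducin, 252), Arpc2 (239), Tudor-SN (196) and CG42564 (141).

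For 10 of the 42 bound hosts the summit of highest signal lay nearer to the start of another gene. This held for 2 of the 24 ribosomal protein hosts, RpS20 and RpS6, and for 8 of the 18 others. Among those were Arpc2, whose summit was 20 bp from the start of CG10949, hts, with CalpA at 3 bp, and Fib, with CG3085 at 39 bp. Another of them, gcl, also had a weaker optimal summit 31 bp from its own start. Peaks between divergent genes cannot be told apart by these lists as to the gene they belong to.

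The hosts with the most snoRNAs were not the ones with the strongest peaks. Arpc2, a subunit gene of the Arp2/3 actin complex, holds 17 H/ACA snoRNAs and had a signal of 239. Uhg1 (16) was not bound, nor was dom (15), which encodes the Domino chromatin remodeller and had no region within 500 bp of its start in any list. RpS5a (14) and Uhg5 (11) followed with 170 and 152. None of the snoRNAs in Arpc2, Uhg1, dom or RpS5a was bound at its own start. Of the 14 hosts with 5 or more snoRNAs 8 were bound (57.1%), against 34 of 68 hosts with fewer (50%). Hosts with a single snoRNA were bound in 18 of 45 cases (40.0%) and those with several in 24 of 37 (64.9%).

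Unbound hosts often had weak regions. Of the 40 hosts without an optimal summit, 17 had a pooled region at the start, and 17 had no region in any of the lists. Hrb98DE, an hnRNP gene with 7 snoRNAs, had the highest such pooled signal, 113, with 80.4 in replicate 1, both at a summit 412 bp upstream. Its highest replicate 2 region, of 68.55, was another place, with the summit 463 bp inside the gene. CG10576, with 5 snoRNAs, had none. Hosts bound only at another of their transcript starts included Msp300, lola, pAbp and tou, with signals of 1206, 1259, 400 and 154. Counting any transcript start gave 47 bound hosts of 82. The same share over other genes was not counted, and a gene with more starts has more places for a summit. lola, which encodes a family of BTB transcription factors and holds 4 snoRNAs, had only 25.3 in the pooled list at its 5'-most start.

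Among the host classes, the signed median summit position was nearest to the start in ribosomal protein genes. Upstream positions are negative, so summits on either side offset each other in such a median, which does not measure distance. Over the 42 bound hosts the median position was -59 bp (quartiles -158 and 25.8 bp), with 28 upstream of the start. In the ribosomal protein hosts the median was -30 bp, with 14 of 24 upstream and a range from -298 to 305 bp. The 4 bound Uhg genes had a median of -56 bp, within -151 to 28 bp. In the other protein-coding hosts outside the snoRNP list the median was -174 bp. The bound protein-coding genes that host no snoRNA had a median of -152 bp, with 2115 of 2539 upstream. RpL3 (15 bp inside), RpL14 (16 bp upstream), RpL30 (17 bp inside) and RpL17 (19 bp inside) had their summits nearest to the start among hosts. Ribosomal protein genes that host none had such summits too, as in RpL12 (3 bp inside), RpL24 (9 bp upstream) and RpS27 (12 bp upstream). Others of them lay farther off, as in RpL32 (193 bp upstream) and RpL35 (338 bp inside). Nearness to the start was thus not confined to hosts.

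**Figure D4:**
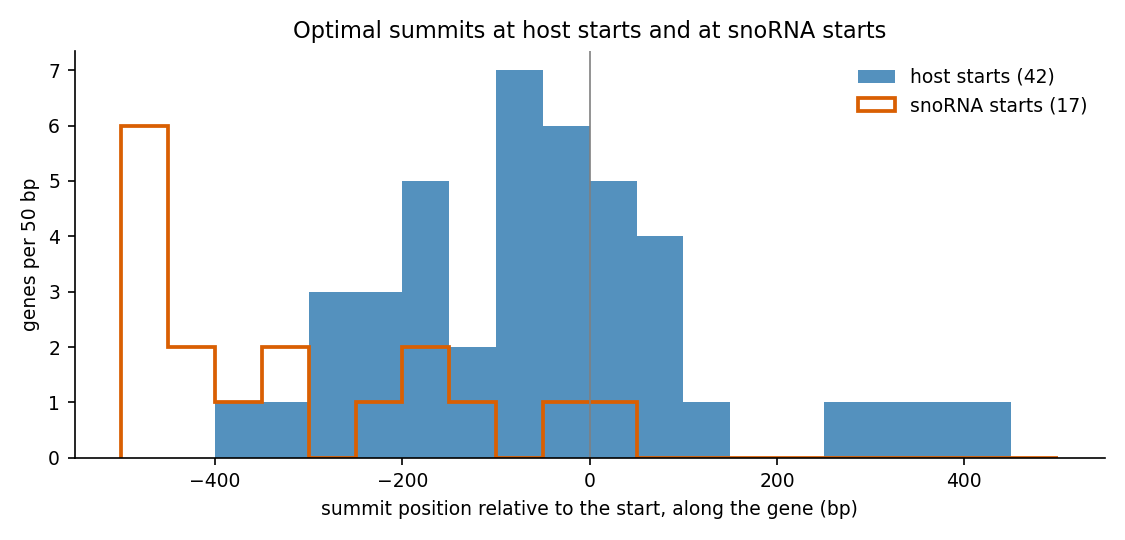
Histograms in bins of 50 bp give the position of the optimal summit relative to the start along the gene, for 42 host starts (filled) and 17 snoRNA starts (outline). Host summits gather around the start, with a median of -59 bp, and snoRNA summits lie mostly upstream, with a median of -389 bp.

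Promoter sequence was compared since the peaks of the hosts fall on it. The motifs sought were the core of the DRE, an element of many housekeeping promoters in flies, which reads TATCGATA, and the E-box, which reads CACGTG. A simple repeat of the letters GAGAGA was counted too, as was a further simple repeat whose letters were CACACA. Each was sought on both strands in the window that runs from 100 bp before the start to 50 bp after it. A pyrimidine start, CTTTT or CTTTC on the sense strand within 10 bp of the start, was added after the data were seen, since start sites of this kind are known from ribosomal protein genes. The pyrimidine start was found in 10 of 28 ribosomal protein hosts (35.7%), 3 of 10 non-coding hosts (30%) and 3 of 44 other protein-coding hosts (6.82%). The share was 32.3% of the 65 ribosomal protein genes that host none and 4.94% of the 13873 protein-coding genes that host none.

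The DRE core occurred in 8 of 28 ribosomal protein hosts (28.6%), against 29.2% of ribosomal protein genes that are not hosts and 7.56% of protein-coding genes that host none. It was in 8 of 42 bound hosts and in 7 of 40 unbound ones, shares of 19% and 17.5%. The E-box was in 9 of 82 hosts (11%), a set with 10 non-coding genes, against 2.36% of protein-coding genes that host none. It was in 3 of those 10 (30%) and in 5 of the 44 other protein-coding hosts (11.4%). It was in 1 of 28 ribosomal protein hosts (3.57%), against 10.8% of the 65 ribosomal protein genes that host none. It was in 4 of 42 bound hosts (9.52%), namely Uhg2, RpL11, Fib and nop5, and in 5 of 40 unbound ones (12.5%), namely Uhg1, Uhg3, Rbfox1, pths and Nop60B. The GAGA repeat was in 1 of 82 hosts (1.22%), against 6.98%, and the CA repeat in 10 (12.2%), against 10.9%. The second share of each pair is that of protein-coding genes that host none, while the hosts include non-coding genes. A match is only a run of letters, and binding of any factor to it was not tested.

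The next 7 sequences are promoters of bound hosts, each of 140 bases, of which the last 20 begin with the 5'-most base of the gene. RpL14, RpL28 and RpL13A were the highest ribosomal protein hosts whose summit lay nearest their own start, Uhg8 and Uhg2 are non-coding hosts, nop5 encodes a snoRNP core protein and kra has 8 snoRNAs. Capitals mark a DRE core, an E-box or a pyrimidine start.
RpL14, chr3L:8600886-8601025, plus strand: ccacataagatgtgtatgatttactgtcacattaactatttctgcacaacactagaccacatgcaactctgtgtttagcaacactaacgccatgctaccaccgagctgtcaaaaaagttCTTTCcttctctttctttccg
RpL28, chr3L:3222941-3223080, minus strand: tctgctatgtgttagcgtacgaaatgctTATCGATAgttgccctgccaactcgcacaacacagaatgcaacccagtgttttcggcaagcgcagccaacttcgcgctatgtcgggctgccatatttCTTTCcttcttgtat
RpL13A, chr3R:5624354-5624493, plus strand: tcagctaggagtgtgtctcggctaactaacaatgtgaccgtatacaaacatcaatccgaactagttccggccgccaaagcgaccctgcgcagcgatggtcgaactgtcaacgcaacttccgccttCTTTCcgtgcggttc
Uhg8, chr3L:20453173-20453312, plus strand: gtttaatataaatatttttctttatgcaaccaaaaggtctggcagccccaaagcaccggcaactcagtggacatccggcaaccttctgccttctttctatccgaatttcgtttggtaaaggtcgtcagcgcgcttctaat
Uhg2, chr2L:9894984-9895123, minus strand: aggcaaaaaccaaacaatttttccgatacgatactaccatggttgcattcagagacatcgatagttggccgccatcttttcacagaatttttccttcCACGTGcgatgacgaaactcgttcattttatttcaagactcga
nop5, chr2L:6918724-6918863, minus strand: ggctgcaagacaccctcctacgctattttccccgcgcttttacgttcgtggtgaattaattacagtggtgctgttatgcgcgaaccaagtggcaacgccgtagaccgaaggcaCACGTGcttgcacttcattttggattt
kra, chr3R:5601117-5601256, minus strand: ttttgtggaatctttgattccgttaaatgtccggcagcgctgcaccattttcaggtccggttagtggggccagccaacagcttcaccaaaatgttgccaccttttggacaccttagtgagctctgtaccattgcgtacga

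In RpL14 the optimal summit lay 16 bp upstream of the start and within the printed run, as it did in RpL28 at 64 bp, RpL13A at 43 bp and Uhg2 at 43 bp upstream. In Uhg8, nop5 and kra it lay farther upstream, at 151, 295 and 146 bp.

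Of the 11 free-standing snoRNAs, 8 had a pooled region below the lowest optimal signal at their start, and 2 had an optimal summit whose signal was below the optimal median of 244. Any pooled region was present at 31 of 230 intronic starts (13.5%) and at 10 of 11 free-standing starts (90.9%). Among free-standing genes this compares with 29.2% of the 2003 other non-coding genes that no gene spans. In the replicate 1 list 11 of 11 free-standing starts had a region, against 29.9% of those genes, and in the replicate 2 list 10 of 11, against 29.6%. Optimal summits were found at 14 of 230 intronic starts (6.09%) and at 2 of 11 free-standing ones (18.2%). Of the other non-coding genes that no gene spans, 9.69% had one. The 10 pooled regions reduced to 8 distinct summits, since snoRNA:Psi28S-1153 and 2 neighbours, snoRNA genes named only by their position, shared one.

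snoRNA:Psi18S-176, a pseudouridylation guide named for the small ribosomal RNA, had the highest signal of the free-standing genes. It had 183 in the optimal list, 64.9 in replicate 1 and 115 in replicate 2, with the summit 18 bp inside the gene. snoRNA:185 had 158 in the optimal list, 69.9 in replicate 1 and 98.4 in replicate 2, with the summit 36 bp upstream. Both regions were stronger in replicate 2, and among the 7184 highest regions of replicate 1 alone neither was left.

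The group of 3 neighbours had a pooled signal of 113, with 45.5 in replicate 1 and 66.02 in replicate 2, and its summit lay 46 bp upstream of the nearest of them. snoRNA:Psi18S-301 had a pooled signal of 74.5, with 43.4 in replicate 1 and 30.9 in replicate 2. snoRNA:Psi28S-3342 had a pooled signal of 58.0, with 32.2 in replicate 1 and 33.3 in replicate 2, and the nearest other start was 6965 bp away. U3, the C/D box RNA that takes part in cleavage of the ribosomal RNA precursor, is encoded by 3 of the free-standing genes. snoRNA:U3:54Aa had a pooled signal of 53.1, snoRNA:U3:54Ab 47.2 and snoRNA:U3:9B 42.5. The nearest other start to snoRNA:U3:9B was 14473 bp away. snoRNA:Me18S-A1806 had no pooled region and a replicate 1 region of 14.2, near the lowest of its list.

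The counts at these genes carry limits from their surroundings. Of the 11, 4 lay within 500 bp of another gene's start, among them snoRNA:U3:54Aa and snoRNA:U3:54Ab at 316 and 317 bp from tRNA genes for leucine and snoRNA:185 at 379 bp from a tRNA gene for glutamate. The sequences of snoRNA:U3:54Aa and snoRNA:U3:54Ab are identical over 210 bp, so a read lying wholly inside one could belong to either. What part neighbouring genes have in these regions was not tested.

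**Figure D5:**
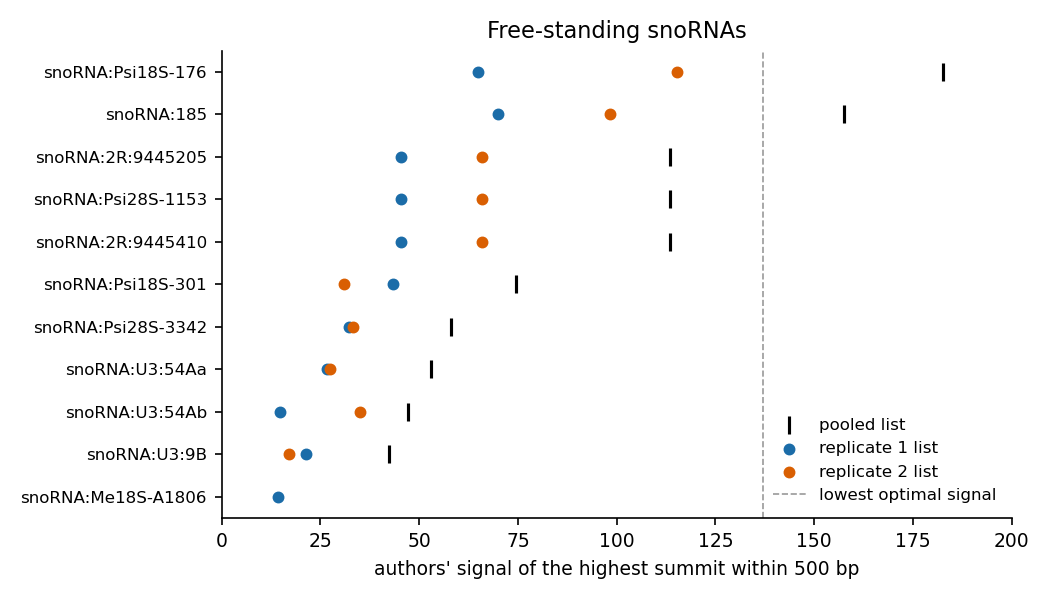
Rows are the 11 free-standing snoRNAs, with the authors' signal of the highest region within 500 bp in the pooled list (black tick), replicate 1 (blue) and replicate 2 (orange). The dashed line is the lowest optimal signal, 137, on the scale of the pooled list, and 2 pooled values lie above it.

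SnoRNAs inside a gene on the other strand fell between these classes, with pooled regions at 5 of 10 starts and an optimal summit at 1. Of the 1681 other non-coding genes that a gene spans, 22.5% had a pooled region and 5.65% an optimal summit. With only 10 starts, the optimal share rests on 1 gene. That gene was snoRNA:Or-ACA6, within egr, the fly tumour necrosis factor gene. It had 389 in the optimal list, 197 in replicate 1 and 192 in replicate 2, with the summit 469 bp upstream. Its neighbours snoRNA:Or-ACA7 and snoRNA:Or-CD13, also within egr, had pooled signals of 62.2 and 66.9. The value at snoRNA:Or-CD13 belongs to a weaker summit of the same region that was counted for snoRNA:Or-ACA6. Of the 6 exonic snoRNAs none was bound, and snoRNA:CG43051-a alone had a pooled region, of 73.2.

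Genes for proteins that work with snoRNAs were examined from a list of 14. Optimal summits lay at 7 of the 14 starts (50%), against 18.3% of protein-coding genes that host no snoRNA. Pooled regions lay at 11 (78.6%), against 39.7% of those genes. pont and rept encode ATPases that help to assemble snoRNPs and act in chromatin remodelling. pont had 976 in the optimal list, 508 in replicate 1 and 467 in replicate 2, and rept had 208 in the optimal list, 89.95 in replicate 1 and 115 in replicate 2. Of the C/D core proteins, nop5 had 508 and the methyltransferase gene Fib (fibrillarin) 225, while Nop56 had only a pooled region of 88.8 and hoip no pooled region. Of the H/ACA core proteins, NHP2 had 455, Gar1 only a pooled region of 77.9 and Nop10 no pooled region. Nopp140, a nucleolar chaperone of snoRNPs, had a pooled region of 125 and CG10341 one of 45.9. Nop60B, the pseudouridine synthase gene, itself a host of 7 snoRNAs, had regions of 64.2 in replicate 1 and 63.1 in replicate 2 but none in the pooled list. The remaining bound genes were coil (coilin, 190), nearer to the start of Socs44A, and Nufip, an assembly factor gene (165). Of the 14, nop5, Fib and Nop60B are hosts too and stand in both counts.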

How the data were processed

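CG7556-GFP was measured by ChIP-seq in 2 biological replicates, and per the labels' protocols chromatin was sheared to 200 to 800 bp. The authors made lists on dm6 and dm3 and derived the optimal list from the pooled and replicate lists, per the file headers, and only dm6 was used. The deposited signal values and summit offsets are the authors' own, while aligner, peak caller and signal scale were not given in any source used. Genes came from Ensembl release 115 (BDGP6.54, dm6 coordinates) without transposable elements and pseudogenes, and sequence from RefSeq Release 6. Where several genes spanned a snoRNA, the one with an intron around it came first, then the shortest. Of the summits within 500 bp the one of highest signal was taken. The 14 snoRNP genes were matched by symbol, older symbols through RefSeq. Members and lists were chosen with earlier results of these data known. Named are the bound snoRNAs, bound hosts, the 5 hosts with most snoRNAs, the highest of each class and bound snoRNP genes, besides others that illustrate a count. The window search was checked on planted positions. Alternatives were each replicate alone, other windows, thresholds, overlap, nearest start, host definitions and units. Analysis used Python 3.11.15, pandas 2.3.3 and numpy 2.4.6.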

Additional observations from a re-analysis of the deposited data

How the results depend on the processing

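The count of bound hosts, 42 of 82, varied with the windows, thresholds and assignment rules tried. It ran from 29 (highest 3592 optimal peaks) to 59 (any pooled region). Apart from any pooled region, the share over other genes was not recounted at these settings. With 1 replicate left out, 24 to 25 of 28 ribosomal protein hosts were bound. Without the ribosomal protein genes, a choice made after seeing the data, 18 of 54 hosts were bound. Counts of bound snoRNA starts depended on the definition. Against 17 in all (intronic 14, free-standing 2), a 200 bp window gave 6 (intronic 4), a 1000 bp window 51 (intronic 46), the highest 3592 peaks 8 (intronic 7, free-standing 0), any pooled region 47 (intronic 31, free-standing 10), overlap of the start with the region 5 (intronic 3) and the nearest start only 4 (intronic 1). Wider windows and lower thresholds include more summits by construction. Leaving out 1 replicate gave 11 to 18 bound snoRNA starts, 10 to 14 intronic, 0 to 2 free-standing, 40 to 43 hosts and 2 to 4 non-coding hosts, the lower values always from the replicate 1 list alone. With any region of a single replicate list, chosen after seeing the data, 10 to 11 free-standing starts had a summit. No paired analysis was possible because there is 1 group. Read depth is unknown, so the error of single signals cannot be given.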

Other observations

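The pooled list lacked some regions that both replicates listed. RpL36A and Nop60B were the hosts with a region in each replicate and none in the pooled list within 500 bp of the start. RpL36A ranked 4743 in replicate 1 and 6961 in replicate 2, inside the 7184 highest of each. Over all genes and intergenic sequence, 194 of the 7182 highest regions of replicate 1 on the arms overlapped no pooled region, and 122 of the 7184 highest of replicate 2. All 7184 optimal peaks are pooled regions with the same position, summit and signal, so such places could not be counted as bound.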
